A study of Mus musculus with 28 samples.

Results

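The genes described here are Trp53, which encodes the transcription factor p53, and 9 of its direct targets, Mdm2, Trp53inp1, Cdkn1a, Btg2, Ccng1, Sesn1, Sesn2, Phlda3 and Bax. They were taken by name from tables that list 22919 genes, and all 10 were found there. The members were chosen by name with measured log2 changes of the same data already known, among them that of Trp53inp1 for the knockdown in TTX, so their counts and p-values below are descriptions and not independent evidence. Nascent RNA came from 16 forebrain cultures made from pooled cortices and hippocampi of CD1 mouse embryos at embryonic day 18. Neurons, astrocytes and oligodendrocyte precursor cells are the cell types that the labels give. On day in vitro 14 every culture received a lentivirus, whose shRNA was either a control (shCtrl) or directed at Rai1 (shRai1), which encodes a chromatin-associated regulator. On day 17 each arm was given vehicle (water), 1 µM tetrodotoxin (TTX), which blocks sodium channels and silences firing, or 20 µM bicuculline (BIC), which blocks inhibition by GABA and raises firing, for 4 hours. Bromouridine at 2 mM was present for the last 20 minutes, and RNA that had taken it up was captured and sequenced (Bru-seq), so a value reports RNA made in that window and not the RNA stock of the cell. The groups shCtrl vehicle and shCtrl BIC had 2 libraries each, and shCtrl TTX, shRai1 vehicle, shRai1 TTX and shRai1 BIC had 3 each.

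p53 is held at a low level by the ubiquitin ligase Mdm2, itself a p53 target, which closes a feedback loop. DNA damage and other stresses free p53 from Mdm2, and it then switches on genes that stop the cell cycle, adjust metabolism and redox state, or start apoptosis. Most of that control acts on the p53 protein, which nascent RNA does not measure, and several of the targets also answer to other factors: Btg2 belongs to the early genes that neurons switch on after firing, and Cdkn1a and Sesn2 respond to many stresses.

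The deposited tables give 1 log2 change, its standard error and an adjusted p-value per gene and comparison, so the spread between libraries enters only through the standard error. The submitters describe the replicates as biological, each from tissue of several embryos with a matched ratio of the sexes. A gene is called here when its adjusted p over all tested genes is under 0.05. The 10 genes had mean normalized counts from 133 for Phlda3 to 1738 for Mdm2, against a median of 107 over the 21192 genes with a test, so each lay above that median. In the authors' deposited tables, the log2 difference of Rai1 itself between the arms was 0.16 for vehicle, -0.12 for TTX and 0.03 for BIC, none called. An shRNA acts on finished RNA, so nascent reads do not check the knockdown. In the control arm in vehicle, all 12 neuron markers had at least 3.21 FPKM and all 10 astrocyte markers at least 5.68 FPKM. Oligodendrocyte-lineage markers ranged from 0.134 to 70.9 FPKM, and all 6 endothelial markers were under 1 FPKM. Of 10 microglial markers, 5 were under 1 FPKM, C1qc among them at 0, and the highest was Cx3cr1 at 14.7 FPKM. In the authors' deposited tables Cx3cr1 rose with BIC, by log2 0.92 in shCtrl and 0.60 in shRai1, and of 12 neuron markers 7 were called higher and 3 lower with BIC in each arm (medians 0.69 and 0.77). Their part in the BIC values below was not tested. In such mixed cultures, fewer cells of a type and less RNA per cell cannot be told apart.

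The stretch before the start of Btg2 and of Cdkn1a is shown because their levels spanned most over the 6 groups, 1.76 and 1.29 on the log2 scale. In the sequence of Btg2, capitals mark a cyclic AMP response element (TGACGTCA) and a match to an EGR motif (GCGNGGGCG). For Cdkn1a, capitals mark a pair of matches to the p53 decamer consensus before the upstream of its listed starts. Sequences are 250 bases, 5′ to 3′, from RefSeq for GRCm38.p6: Btg2 at chr1:134079156-134079405 on the minus strand and Cdkn1a at chr17:29090729-29090978 on the plus strand.
Btg2: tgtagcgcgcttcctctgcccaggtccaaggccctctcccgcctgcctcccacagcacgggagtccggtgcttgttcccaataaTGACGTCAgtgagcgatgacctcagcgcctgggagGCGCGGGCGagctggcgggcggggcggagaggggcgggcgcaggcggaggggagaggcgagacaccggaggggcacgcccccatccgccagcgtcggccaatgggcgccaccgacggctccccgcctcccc
Cdkn1a: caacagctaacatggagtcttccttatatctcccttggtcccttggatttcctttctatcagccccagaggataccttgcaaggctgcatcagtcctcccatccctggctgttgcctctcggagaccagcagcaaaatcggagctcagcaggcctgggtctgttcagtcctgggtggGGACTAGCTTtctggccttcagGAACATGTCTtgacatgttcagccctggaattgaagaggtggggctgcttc

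The cyclic AMP response element of Btg2 lay 166 to 159 bases before the start, and its EGR match lay 131 to 123 bases before it. Among 32851 promoters of the same length, searched on both strands, 1.55% held TGACGTCA and 4.70% held GCGNGGGCG. Of the 11 promoters listed for the genes here, 1 held TGACGTCA and 2 held GCGNGGGCG. The other EGR match lay 10 to 2 bases before a start of Sesn1, which was called with neither drug in shCtrl. The p53 decamer consensus was found in 7.13% of those promoters and in 6 of the 11 listed for 9 of the 10 genes. Because the genes were picked as p53 and its direct targets, that contrast is a description only. The Cdkn1a matches lay 73 to 64 and 51 to 42 bases before its start. Neither TGANTCA, the AP-1 motif, nor the CArG box consensus was found in these 11 windows. Over the 32851 promoters their shares were 6.75% and 1.47%, so none in 11 is near the background. Such a match says only that the letters are present. The other promoters with a p53 decamer are shown as 30-base windows, with the match in capitals, so that they can be set beside Cdkn1a.
Mdm2: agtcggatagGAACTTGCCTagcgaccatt
Trp53: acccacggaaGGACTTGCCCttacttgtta
Ccng1: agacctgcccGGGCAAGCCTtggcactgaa
Bax: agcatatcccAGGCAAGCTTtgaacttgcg
Sesn1: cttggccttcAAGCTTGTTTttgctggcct

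These windows lie in GRCm38.p6 with the match at chr10:117710935-117710944 for Mdm2, chr11:69580284-69580293 for Trp53, chr11:40755462-40755471 for Ccng1, chr7:45467090-45467099 for Bax and chr10:41887266-41887275 for Sesn1. Btg2, Sesn2 and Phlda3 had no decamer match in the windows searched.

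Per length of gene, Btg2 was the most transcribed of the 10 in unstimulated control cultures. Its pooled FPKM by the authors was 212 in shCtrl vehicle, with bounds in the file of 158 to 267. Cdkn1a, the inhibitor of cyclin-dependent kinases known as p21, came next at 40.5 FPKM, with bounds of 30.7 to 50.4 that lay below those of Btg2. The other 8 followed from Bax at 31.8 FPKM through Mdm2 at 23.9, Sesn2 at 23.3, Phlda3 at 22.7, Ccng1 at 14.0, Trp53inp1 at 13.2 and Trp53 at 9.58 to Sesn1 at 9.39 FPKM. Below Btg2, each gene's bounds overlapped those of the next in this order. Trp53, the gene of the factor itself, thus stood among the 2 lowest.

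**Figure D1:**
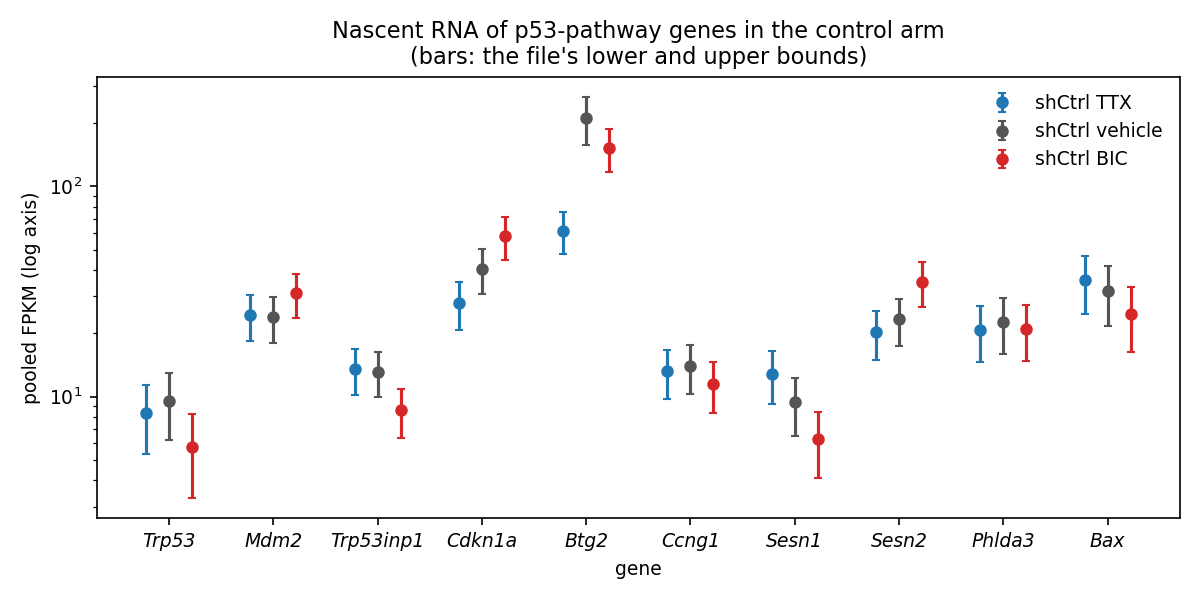
Pooled FPKM of Trp53 and its 9 targets in the 3 groups of the control arm, on a log axis, with each point's bounds as given in the file. Btg2 stands at 212 FPKM in vehicle and 61.6 in TTX, and Cdkn1a goes from 28.0 in TTX to 58.1 in BIC.

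Silencing the network lowered 3 of the 10 genes in the control arm, Btg2, Cdkn1a and Sesn2, and raised none of them. The share of all genes called was 26.7%, with 14.9% lower and 11.8% higher, so 3 of 10 is near the background. The median log2 change of the 10 was -0.14, against 0.00 over all tested genes. In the same deposited comparison of the authors 9 of 10 astrocyte markers lay below 0 (median -0.20). So did 7 of 8 tested oligodendrocyte-lineage markers (median -0.60) and 8 of 12 neuron markers (median -0.16). The part of these markers in the values of the 10 genes was not tested. With bicuculline, 6 of 10 were called, 3 higher and 3 lower, against 34.4% of all genes (17.4% higher, 17% lower). Cdkn1a, Sesn2 and Mdm2 rose, while Trp53, Trp53inp1 and Btg2 fell. Under bicuculline these 3 targets thus went up while the gene of p53 itself went down. Both drug comparisons of an arm share its vehicle libraries.

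Btg2, an antiproliferative gene that lies at chr1:135971442-135975732 in mm9, changed most. Its pooled FPKM by the authors was 212 in vehicle, 61.6 in TTX with bounds of 47.6 to 75.6, and 153 in BIC with bounds of 118 to 188. The TTX bounds lay apart from both others, which overlapped. In the authors' deposited tables the log2 change with TTX was -1.76 (SE 0.204, adjusted p = 4.41e-16) in shCtrl, a 3.38-fold fall, and -0.99 (SE 0.184, adjusted p = 9.75e-07) in shRai1, a 1.99-fold fall. It was the only one of the 10 called in the same direction with TTX in both arms. How many of all genes were so called was not computed. With BIC it fell by 0.55 (SE 0.223, adjusted p = 0.0422) in shCtrl and had a log2 change of 0.05 (SE 0.183, adjusted p = 0.882) in shRai1, again from the authors' deposited tables. The call in shCtrl ended when the p-values were adjusted with no filter (adjusted p = 0.0534) or the changes were centred on the median gene (adjusted p = 0.0666). A rise of Btg2 with raised firing was called in neither arm. Of 16 activity-regulated genes, 6 were called higher and 4 lower with BIC in shCtrl, and 10 higher and 3 lower in shRai1, per the authors' deposited tables. In shCtrl those higher included Dusp1 at 1.63 and Bdnf at 1.41, and those lower included Egr3 at -1.97 and Egr2 at -1.49.

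Cdkn1a, at chr17:29227931-29237667 in mm9, moved both ways with firing. The authors' pooled FPKM in the control arm was 28.0 in TTX with bounds of 20.7 to 35.3, 40.5 in vehicle and 58.1 in BIC with bounds of 44.5 to 71.8. The bounds of TTX and BIC did not overlap each other, but each overlapped those of vehicle. Its log2 change in the authors' deposited tables was -0.69 (SE 0.118, adjusted p = 8.69e-08) with TTX and 0.57 (SE 0.126, adjusted p = 4.99e-05) with BIC in shCtrl. In shRai1 the authors' deposited tables gave -0.25 (SE 0.104, adjusted p = 0.0554) with TTX, which did not pass, and 0.88 (SE 0.101, adjusted p = 5.31e-17) with BIC, a 1.84-fold rise. When only genes averaging 50 or more normalized counts were adjusted together, the TTX value in shRai1 had an adjusted p of 0.0468.

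Sesn2, a stress-induced inhibitor of the growth kinase complex mTORC1, lies at chr4:132048722-132066371 in mm9 and was likewise lowest with TTX and highest with BIC in the control arm. Its pooled FPKM by the authors was 20.2 in TTX, 23.3 in vehicle and 35.2 in BIC, and the bounds of the TTX and BIC groups, 15.0 to 25.5 and 26.8 to 43.5, did not overlap. With BIC it rose by log2 0.66 (SE 0.120, adjusted p = 3.92e-07) in shCtrl and 0.75 (SE 0.0952, adjusted p = 4.42e-14) in shRai1 in the authors' deposited tables. With TTX the authors' deposited tables gave -0.28 (SE 0.109, adjusted p = 0.0365) in shCtrl and 0.14 (SE 0.0958, adjusted p = 0.291) in shRai1. Sesn1, its relative and also a brake on mTORC1, was called in 1 of the 4 drug comparisons, at log2 0.25 (SE 0.0814, adjusted p = 0.0111) for TTX in shRai1 in the authors' deposited table. Averaged over arms its TTX response was 0.16 (SE 0.0616, adjusted p = 0.0269, Wald test computed here). The pooled FPKM of Sesn1, 12.8 in TTX, 9.39 in vehicle and 6.28 in BIC, spread more widely than its deposited log2 changes of 0.08 and -0.17 in shCtrl, which come from the authors' table of comparisons.

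The gene of p53 fell with bicuculline. Trp53 had 5.79 FPKM in BIC, 8.37 in TTX and 9.58 in vehicle in the authors' pooled values for the control arm, with overlapping bounds. The authors' deposited tables gave a log2 change with BIC of -0.49 (SE 0.157, adjusted p = 0.00667) in shCtrl and -0.35 (SE 0.128, adjusted p = 0.0158) in shRai1, while TTX values of -0.01 and 0.26 were not called. Mdm2, the ligase that marks p53 for degradation, rose slightly with BIC, by log2 0.23 (SE 0.0952, adjusted p = 0.0477) in shCtrl and 0.26 (SE 0.0753, adjusted p = 0.00218) in shRai1 in the authors' deposited tables. The shCtrl call ended when the p-values were adjusted with no filter (adjusted p = 0.0603). In shRai1 Mdm2 also rose with TTX, by log2 0.22 (SE 0.0750, adjusted p = 0.0161) in the authors' deposited table.

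The remaining 3 targets moved little. Bax, which permeabilises mitochondria in apoptosis, had a log2 change with BIC of -0.28 in both arms in the authors' deposited tables, called in shRai1 (SE 0.116, adjusted p = 0.0394) and not in shCtrl (SE 0.145, adjusted p = 0.118). The call in shRai1 ended with centring on the median gene (adjusted p = 0.0751). Ccng1, a cyclin that binds the phosphatase PP2A, and Phlda3, which keeps the kinase Akt off the membrane, were called with neither drug in either arm. Over both genes, the deposited log2 changes ranged from -0.19 to 0.22, and their control-arm FPKM bounds overlapped in all 3 groups.

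**Figure D2:**
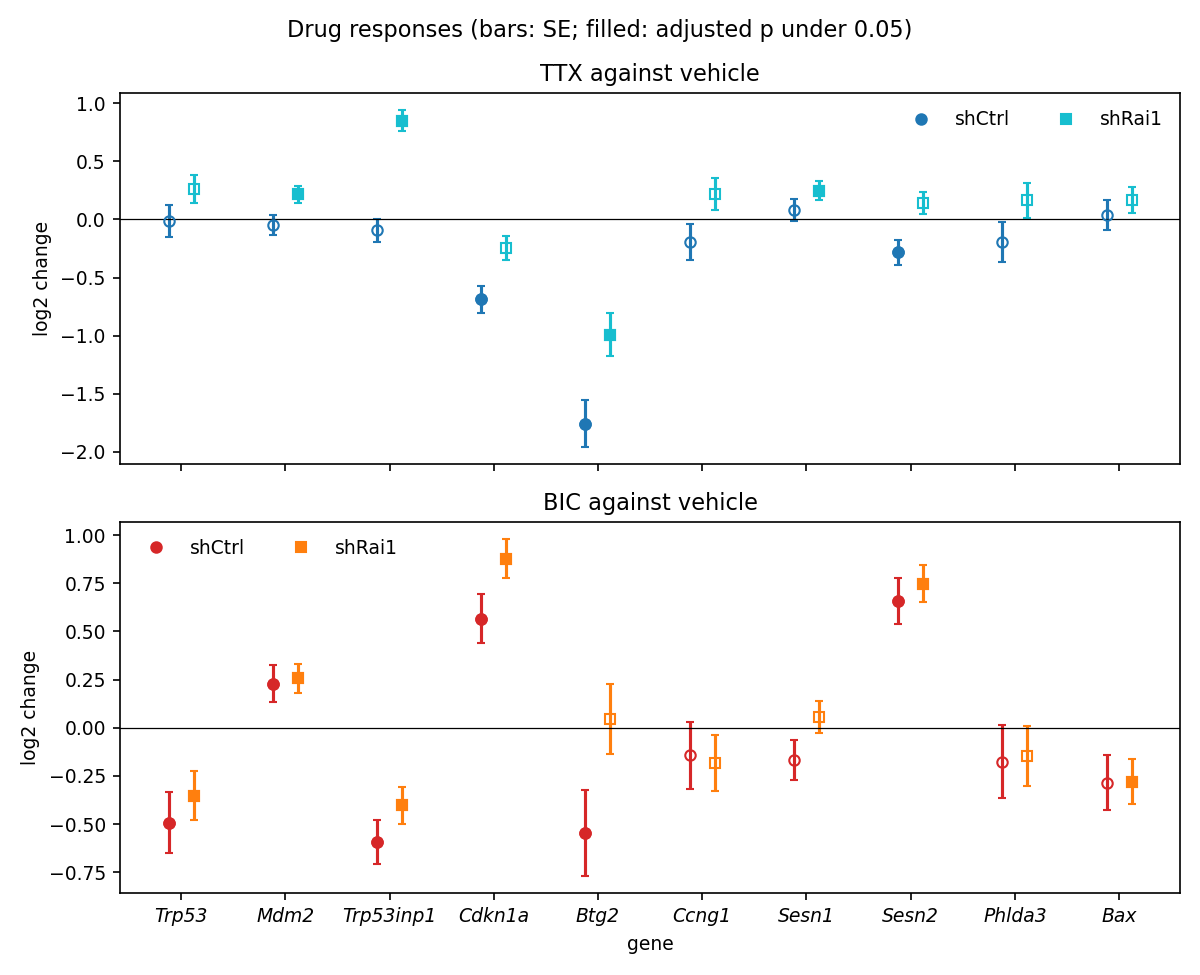
Log2 change with TTX (upper panel) and BIC (lower panel) against vehicle for each gene in shCtrl and shRai1, from the authors' deposited tables, with bars of 1 SE and filled points for an adjusted p under 0.05. Btg2 falls with TTX in both arms, Cdkn1a and Sesn2 rise with BIC in both arms, and Trp53inp1 rises with TTX in shRai1 at log2 0.85.

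In the arm with the shRNA against Rai1, TTX called 4 of the 10, 3 higher (Trp53inp1, Sesn1 and Mdm2) and 1 lower (Btg2), against 30.5% of all genes (13.7% higher, 16.8% lower). In that comparison 8 of 8 tested oligodendrocyte-lineage markers lay above 0 in the authors' deposited table. Of them 5 were called higher, with Pdgfra at 1.10, and the median was 0.38. Above 0 were also 5 of 10 astrocyte markers and 5 of 12 neuron markers. Their part in the values of the 10 genes was not tested. BIC called 6 of 10 in that arm, 3 higher and 3 lower, against 42.5% of all genes (21.3% higher, 21.3% lower). Calls in the same direction in both arms were made for Btg2 with TTX and for Trp53, Trp53inp1, Cdkn1a, Mdm2 and Sesn2 with BIC. The share of all genes called the same way in both arms was not computed, so these calls are a description only. With the arms averaged, the Wald test computed here from the deposited values called 4 with TTX (32.5% of all genes) and 6 with BIC (45.4%).

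Trp53inp1 responded to TTX in one arm and not detectably in the other. It encodes a p53-induced nuclear protein that promotes p53 activity and autophagy, and lies at chr4:11083588-11101524 in mm9. Relative to shCtrl vehicle, its group levels in log2, computed from the deposited contrasts, were -0.09 in shCtrl TTX, -0.59 in shCtrl BIC, -0.52 in shRai1 vehicle, 0.33 in shRai1 TTX and -0.93 in shRai1 BIC. Thus shRai1 TTX was the highest of the 6 groups and shRai1 BIC the lowest. With TTX the log2 change was -0.09 (SE 0.102, adjusted p = 0.560) in shCtrl and 0.85 (SE 0.0897, adjusted p = 1.70e-19) in shRai1, a 1.80-fold rise, in the authors' deposited tables. BIC lowered it in both arms, by 0.59 (SE 0.116, adjusted p = 2.51e-06) in shCtrl and 0.40 (SE 0.0955, adjusted p = 1.07e-04) in shRai1, in the same deposited tables of the authors.

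The difference between the TTX responses, shRai1 minus shCtrl, was 0.94 for Trp53inp1 (SE 0.135, adjusted p = 2.94e-08, Wald test computed here and adjusted over 18466 genes). By absolute Wald statistic it ranked 2 of 18466 genes. No other of the 10 passed, and 0.926% of all genes did. At an unadjusted p under 0.05 there were 6 of the 10, Trp53inp1 included, and 8.94% of all genes. The differences of the 9 genes other than Trp53inp1 ran from 0.13 for Bax through 0.42 for Sesn2 (SE 0.145, adjusted p = 0.165 by the same Wald test) and 0.44 for Cdkn1a (SE 0.157, adjusted p = 0.192 by the Wald test) to 0.77 for Btg2 (SE 0.275, adjusted p = 0.202 by the Wald test). All 10 lay above 0, with a median of 0.39, against 49.5% of all genes above 0 and a median of 0.00. For BIC the Wald test called 0 of the 10, against 0.0217% of all genes, with 1 at an unadjusted p under 0.05, against 2.99%. Of the BIC differences 9 of 10 lay above 0 with a median of 0.12, while 53.1% of all genes did. The TTX and BIC differences share the vehicle libraries of both arms, so the signs of the second are no separate observation. For that BIC difference 16 of 16 activity-regulated genes (median 0.60), 11 of 12 neuron markers (median 0.13) and 13 of 16 paralogues (median 0.20) also lay above 0, and their part in the values of the 10 genes was not tested.

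Markers of the oligodendrocyte lineage moved with the same contrast. Of 9 tested, 6 were called for the TTX difference by the same Wald test, all higher, from 0.76 for Olig1 to 2.41 for Gpr17, with 1.86 for Pdgfra, and the list's median was 1.10. In vehicle 4 of 7 tested were called lower in shRai1 than in shCtrl, with a median of -0.73, and in TTX 1 of 10 was called higher, with a median of 0.24, in the authors' deposited tables. In BIC 8 of 10 lay below 0, with a median of -0.33, and 1 was called, Pdgfra at -0.90, per the authors' deposited table. Their summed FPKM in the control arm was 192 in vehicle, 164 in TTX and 190 in BIC, with Mag listed at 0 in BIC and no other of the 10 at 0 in any of these groups. With TTX in shCtrl 7 of 8 tested lay below 0 in the authors' deposited table, with a median of -0.60. Of these 8, 1 was called higher and 4 lower, against 26.7% of all genes called. With BIC in shCtrl 8 of 8 lay below 0, with a median of -0.26 and 2 called lower, against 34.4%. Mbp had 18.5 FPKM in vehicle and 26.2 in BIC, while its deposited log2 change with BIC was -0.49. For the difference of TTX responses the 10 astrocyte markers had a median of 0.13, and of 12 neuron markers 1 was called by the Wald test, Rbfox3 at -0.40. A list of 16 activity-regulated genes, early genes such as Fos and Egr1, moved as well: all 16 were called lower with TTX in both arms in the authors' deposited tables (median -2.31 in shCtrl, -1.83 in shRai1), and their TTX differences all lay above 0, with a median of 0.51 and 1 called by the Wald test, Homer1 at 0.51. What part the lineage markers or the activity-regulated genes have in the values of Trp53inp1 and the other 9 genes was not tested.

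**Figure D3:**
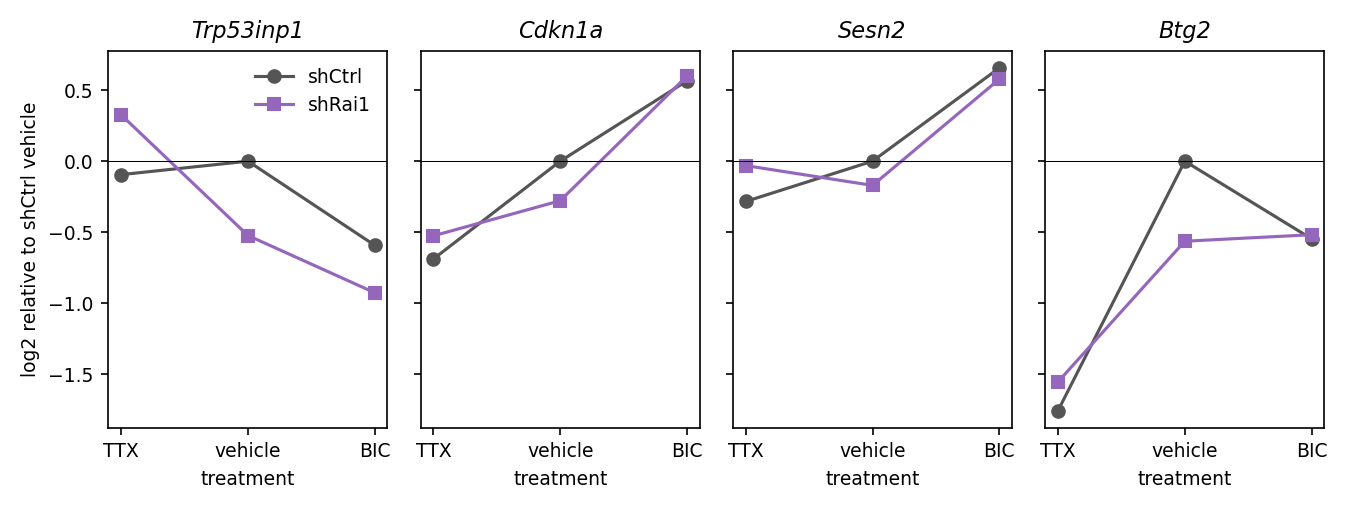
Level of Trp53inp1, Cdkn1a, Sesn2 and Btg2 in the 6 groups, in log2 relative to shCtrl vehicle, from the deposited contrasts, without error bars. The lines of the 2 arms run apart for Trp53inp1, where shRai1 TTX lies at 0.33 and shCtrl TTX at -0.09 on this scale.

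Set directly against shCtrl within each treatment, shRai1 gave few calls among these genes. In vehicle 1 of 10 was called, Trp53inp1 at -0.52 (SE 0.103, adjusted p = 4.28e-04) in the authors' deposited table, against 0.857% of all genes. In TTX again 1 of 10 was called, Trp53inp1 at 0.42 (SE 0.0885, adjusted p = 0.0138) in the authors' deposited table, against 0.0283% of all genes. The TTX value of Trp53inp1 was known when the genes were picked, so it is given as a description. In BIC the authors' DESeq2 test called 0 of 10, against 0.00944% of all genes. At an unadjusted p under 0.05 there was 1, Trp53inp1 at -0.33 (SE 0.107, adjusted p = 0.849) in the authors' deposited table, against 2.93% of all genes.

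Calls were few, but most values shared a sign within vehicle and within TTX. In vehicle all 10 values lay below 0 in the authors' deposited table, with a median of -0.17, from -0.56 for Btg2 and -0.28 for Cdkn1a to -0.03 for Bax. Of all tested genes 51.5% lay below 0, with a median of -0.01. In TTX 9 of 10 lay above 0, with a median of 0.18, while 45.7% of all genes did, and the exception was Sesn1 at -0.00, which moved to 0.01 with centring on the median gene. In BIC 4 of 10 lay above 0 and the median was -0.05. The vehicle values and the TTX values rest on separate libraries, and the TTX difference given above is the second minus the first, so it adds no further observation. Likewise, the BIC difference is the BIC value minus the same vehicle value and adds none either. Other lists leaned the same way in vehicle in the authors' deposited table: 16 of 16 activity-regulated genes lay below 0 (median -0.44), as did 9 of 9 tested astrocyte markers (median -0.25), 6 of 7 tested oligodendrocyte-lineage markers (median -0.73), 11 of 12 neuron markers (median -0.10) and 10 of 11 tested paralogues of the 10 genes (median -0.11). In TTX the authors' deposited table had 7 of 10 oligodendrocyte-lineage markers (median 0.24), 9 of 16 activity-regulated genes, 5 of 10 astrocyte markers, 1 of 12 neuron markers and 7 of 16 paralogues above 0. The part of these lists in the signs of the 10 genes was not tested. Averaged over the 3 treatments, the Wald test called 0 of 10, against 0.00548% of all genes, with 1 at an unadjusted p under 0.05, against 4.12%.

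**Figure D4:**
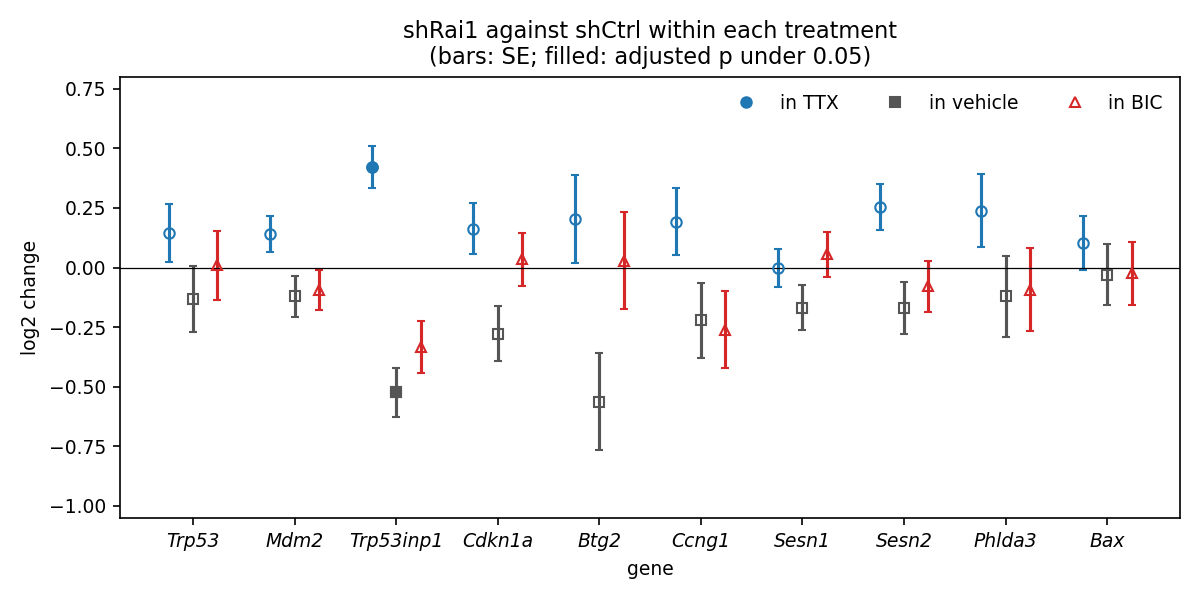
Log2 difference of shRai1 from shCtrl in TTX, vehicle and BIC for each gene, from the authors' deposited tables, with bars of 1 SE and filled points for an adjusted p under 0.05. Trp53inp1 is at 0.42 in TTX and -0.52 in vehicle, and those are the only filled points.

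Further p53 targets, 35 of them from a list drawn up by name, were called in both directions with the drugs. In shCtrl, TTX called 3 higher and 11 lower of 34 tested in the authors' deposited table, with a median of -0.25, against 26.7% of all genes called. Plk2, a kinase that neurons switch on with firing, was lowest at -1.01 and Zfp365 next at -0.92, and Fdxr, a mitochondrial reductase, was at 0.57. In shCtrl cultures given BIC, 7 of 34 were called higher and 8 lower per the authors' deposited table, against 34.4% of all genes, with Plk2 at 1.63 and Plk3 at 0.78 against Ddit4, an inhibitor of mTORC1, at -0.82 and the DNA repair gene Xpc at -0.71. In shRai1 the authors' deposited tables had 7 higher and 8 lower of 34 with TTX, against 30.5% of all genes, and 8 higher and 9 lower of 34 with BIC, against 42.5%, led by Plk2 at 2.05 and Gadd45a, a growth arrest gene, at 1.21.

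With the knockdown, few of these further targets were called. In vehicle 24 of 33 tested lay below 0, with a median of -0.14, against 51.5% of all genes. Among them 1 was called, against 0.857% of all genes, Plk2 at -0.43 (SE 0.0935, adjusted p = 0.00314) in the authors' deposited table. In TTX 30 of 35 lay above 0 in the authors' deposited table, with a median of 0.13, against 45.7% of all genes. The DESeq2 test called 0 of them, against 0.0283% of all genes, with 6 at an unadjusted p under 0.05, against 3.3%. In BIC 14 of 35 lay above 0 in the authors' deposited table, with a median of -0.06, against 52.9% of all genes. There the DESeq2 test called 0, against 0.00944% of all genes, with 5 at an unadjusted p under 0.05, against 2.93%. For the difference of TTX responses the Wald test called 3 of 34, against 0.926% of all genes, all higher: Apaf1, the scaffold of the apoptosome, at 0.55 (SE 0.122, adjusted p = 0.00349), Plk2 at 0.55 (SE 0.126, adjusted p = 0.00497) and the death-domain receptor Eda2r at 0.88 (SE 0.249, adjusted p = 0.0460). Of the 34, 28 lay above 0, with a median of 0.25, against 49.5% of all genes. These medians come from the same libraries as those above.

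Genes that act on p53 were also called in both directions. Of 15 on the list, the authors' deposited table had 6 higher and 2 lower with BIC in shCtrl, against 34.4% of all genes called. Hipk2, a kinase that activates p53, was at 0.88 and Rfwd2, a ubiquitin ligase for p53, at 0.86, while the DNA damage kinases Atm and Prkdc were at -1.01 and -0.85. In shRai1 7 rose and 3 fell with BIC in the authors' deposited table, against 42.5% of all genes, with Rfwd2 at 0.95, Hipk2 at 0.90, Prkdc at -0.82 and Atm at -0.60. Of 14 tested with TTX, 1 was called higher and 3 lower in shCtrl, against 26.7% of all genes, and 1 higher and 4 lower in shRai1, against 30.5%, in the authors' deposited tables. In those tables of the authors, Mdm4, the partner of Mdm2, was the one higher, at 0.19 and 0.29, Trp53bp1, a DNA damage adaptor, was at -0.54 and -0.72, and Rfwd2 was lowest in shCtrl at -0.55. Between the arms the authors' DESeq2 test called 0 of 14 tested in vehicle and 0 of 15 in TTX or BIC. At an unadjusted p under 0.05 there were 1, 0 and 2, against 11.1%, 3.3% and 2.93% of all genes.

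**Figure D5:**
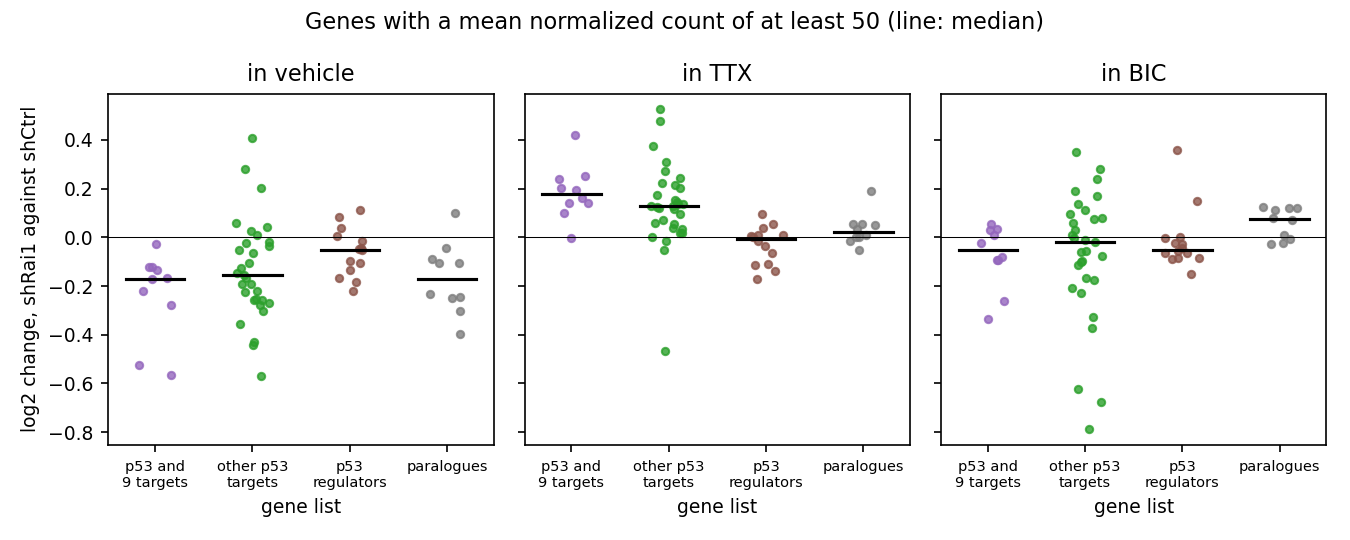
Log2 difference of shRai1 from shCtrl for each treatment, from the authors' deposited tables, for p53 and 9 targets, other p53 targets, p53 regulators and paralogues that averaged 50 or more normalized counts, with the median as a line. The median of p53 and 9 targets goes from -0.17 in vehicle to 0.18 in TTX and -0.05 in BIC.

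For the 3 genes whose 6 group levels spanned at least 1 on the log2 scale, the closest genes were sought by the Euclidean distance between centred group levels among 12333 genes averaging 50 or more normalized counts. Trp53inp1 was nearest to Sept4 at a distance of 0.200, Rbbp9 at 0.204 and Zfand6 at 0.256. Their mean normalized counts were 73.8, 76.1 and 352, against 674 for Trp53inp1. Unlike Trp53inp1, none of these 3 was called between the arms in any treatment, and Rbbp9 was not called with BIC in either arm. Cdkn1a was nearest to Atp11b at 0.0783, Nfatc1 at 0.0973 and Fmr1 at 0.103. Btg2 was nearest to Hmgcs1 at 0.292, Idi1 at 0.294 and Nhp2l1 at 0.319. The distances rest on 6 group means from 16 libraries, and all genes share those libraries.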

How the data were processed

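The members and gene lists were chosen with earlier results of these data known. Bru-seq libraries of 50 bp single-end reads, 16 in 6 groups, were analysed, and 12 ChIP samples were not analysed here. TopHat2 2.1.0, Bowtie2 2.2.6, DESeq2 and mm9 are named in the submitters' processing notes, without their roles. The authors' 7 deposited tables give a mean normalized count (a signal averaged by the authors), a log2 change, its standard error, a Wald score and p-values before and after adjustment, per the file headers. The table for the knockdown in vehicle carries no gene names, so 20107 genes were named by a mean count that is unique. The authors' FPKM table gives 1 pooled value per condition with bounds, per the file headers. Its shRai1 columns entered only a mean over conditions used as a filter, because among genes that changed by at least 1 in log2 with TTX only 9 of 314 had the same sign in them. The authors' starts were read as 0-based, since 8136 of 22457 interval lengths equalled those of RefSeq that way and 515 when read as 1-based. They are printed here converted to 1-based.

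Interactions and averages were computed from deposited changes, with the root of summed squared standard errors of contrasts that share no library. Two-sided Wald tests were adjusted by Benjamini-Hochberg over genes averaging 0.1 FPKM or more, and the scripts were tested on simulated data. Named genes were the 10 members, called list genes (at most 2 largest rises and 2 largest falls per list and comparison, mean count of at least 50), and 3 nearest genes per member that spans 1 in log2. Rai1, Apaf1, Olig1, Gpr17, Mag and C1qc were named outside that rule after their values were seen. Alternatives were other thresholds (0.01 and 0.1), filters, centring, standard errors from the knockdown tables (added after seeing the data) and pseudocounts of 0.1 and 1 FPKM. Promoters came from RefSeq, GRCm38.p6. Python 3.11.15, numpy 2.4.6, pandas 2.3.3, scipy 1.17.1 and matplotlib 3.10.9 were used.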

Additional observations from a re-analysis of the deposited data

Results flagged for a closer look

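The response of Trp53inp1 to TTX differed between the arms by 0.94 on the log2 scale, shRai1 minus shCtrl (SE 0.135, adjusted p = 2.94e-08, Wald test from the deposited values over 18466 genes). It is listed because a test of the difference itself passed. The difference equals the knockdown value in TTX minus that in vehicle, and the TTX value was known when the genes were chosen, so this p-value is a description and no independent evidence. The responses behind it were -0.09 in shCtrl, from 3 TTX and 2 vehicle libraries, and 0.85 in shRai1, from 3 and 3, in the authors' deposited tables. With standard errors taken from the knockdown tables it was also called. That form has the same log2 difference and the same libraries, so it is no independent check. Values per library were not used here, so libraries that stand apart were not looked for.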

How the results depend on the processing

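No paired analysis was possible because the tables used here carry 1 value per comparison and no replicate numbers, and for the same reason no library was left out. Counts of called genes among the 10 stayed within 1.5 times of the reported ones in 72 of 74 cases. At an adjusted p under 0.01 the count for TTX in shRai1 went from 4 to 2 and that for the knockdown in TTX from 1 to 0, which follows from the stricter threshold. Of 500 single values 493 kept their sign and their side of the threshold, and 4 lost and 1 gained a call, as given beside those genes. The remaining 2, uncalled and near 0, changed sign with centring: Sesn1 in the knockdown in TTX and Bax in the difference of BIC responses (0.01 to -0.01). The size of the changes was not compared between settings. Pseudocounts on the FPKM ratios cannot change their direction. Only 2 libraries in shCtrl vehicle and in shCtrl BIC limit the precision of every comparison that uses them. The depth of single libraries is not given in the sources used here.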

Other observations

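The relatives of these genes, 16 paralogues from a list drawn up by name, included several that rose or fell with TTX or BIC. Ccng2, the sister of Ccng1, rose with BIC by log2 0.82 (SE 0.140, adjusted p = 5.75e-08) in shCtrl and 1.19 (SE 0.116, adjusted p = 2.00e-23) in shRai1, and with TTX by 0.77 (SE 0.117, adjusted p = 1.03e-09) in shRai1, in the authors' deposited tables, while Ccng1 was not called. Sesn3, another sestrin, rose with TTX, by 0.42 in shCtrl and 0.64 in shRai1, and with BIC, by 0.69 in shCtrl and 0.93 in shRai1, per the authors' deposited tables. Btg1, the closest relative of Btg2, rose with BIC by log2 0.60 (SE 0.126, adjusted p = 1.22e-05) in shCtrl, where Btg2 was at -0.55, and by 1.03 (SE 0.10, adjusted p = 1.94e-23) in shRai1, where Btg2 was at 0.05, per the authors' deposited tables. Phlda1, a relative of Phlda3, fell with TTX by 1.09 in shCtrl and 1.04 in shRai1 in the authors' deposited tables. Differences between relatives were not tested. Of the 16, 13 were tested with TTX and BIC in shCtrl. There 6 were called with each drug in the authors' deposited tables, against 26.7% of all genes with TTX and 34.4% with BIC. With the knockdown the authors' DESeq2 test called 0 of 11 tested in vehicle and 0 of 16 in TTX or BIC. At an unadjusted p under 0.05 there were 4, 0 and 0, against 11.1%, 3.3% and 2.93% of all genes.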
